A study of Homo sapiens with 28 samples.

Results

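The genes of the Ikaros family are IKZF1 (Ikaros), IKZF2 (Helios), IKZF3 (Aiolos), IKZF4 (Eos) and IKZF5 (Pegasus). Their chromatin accessibility was described in 22 untreated myeloma cell lines, each assayed once by ATAC-seq, and in 6 of these lines after lenalidomide at 10 µM on day 3. ATAC-seq reads where a transposase can reach the DNA, so a region with many reads is open. Every region whose nearest transcription start, in the deposited annotation, belonged to 1 of the 5 genes was taken, near the start or far from it. This gave 35 of 154985 regions, of which 18 were assigned to IKZF1, 8 to IKZF2, 5 to IKZF3, 2 to IKZF4 and 2 to IKZF5. The gene bodies of IKZF2 and IKZF3 held a further 5 and 7 regions that lay nearer to the start of another gene, and these were not members. The lines with both libraries were Karpas620, KMS27, L363, MM1S, OPM2 and RPMI8226, and the untreated library of the same line was the control.

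Ikaros proteins are zinc finger transcription factors that bind DNA as dimers and recruit chromatin remodelling and deacetylase complexes, and Ikaros and Aiolos are required for normal B lymphocyte development. Lenalidomide binds cereblon, the substrate receptor of a ubiquitin ligase, and directs Ikaros and Aiolos protein to degradation, which is central to its action on myeloma cells. ATAC-seq measures how open the genes are and not the amount of protein, so the loss of the 2 proteins was not measured here.

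Libraries held between 1599857 and 5564534 counts in regions without drug (median 2239819) and between 2168680 and 4248017 with lenalidomide (median 2655490). Values are given as CPM, counts scaled to the total of the library in regions, and a region was named accessible in a line where that library had its own called peak. In each of the 6 lines the lenalidomide library was nearest to the untreated library of the same line, with a Spearman rho over 41640 regions of 0.917 to 0.958. The untreated libraries of KMS34 and PE1, labelled as different lines, were each the nearest to the other with a rho of 0.923, within the range of 2 libraries of the same line, against 0.587 to 0.704 for the nearest library of another line elsewhere, KMS12BM and KMS12PE among them. They are counted here as 2 of the 22 lines as labelled, and only some of the results that rest on the number of lines are also given without PE1. The promoter regions of 6 plasma cell markers, SDC1 and TNFRSF17 among them, were accessible in 18 to 22 of the 22 lines. Those of 3 B cell markers were accessible in 2 to 7 lines, of T cell markers (3 of 4, CD3D and CD3G sharing 1 region) in 1 and of myeloid markers (2 of 4) in 2 to 3.

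The 2 start regions of IKZF1 differ in sequence. All coordinates are GRCh37, and sequence was read from that genome. The first start region spans chr7:50343771-50344913 and overlaps the first exon. The second, chr7:50348041-50348699, is centred 4.7 kb downstream of the first start, within the gene, and covers the first exon of shorter IKZF1 transcripts. Below is the 300-base intronic stretch chr7:50343964-50344263 of the first region and the 235 bases chr7:50348041-50348275 just upstream of the exon in the second, both on the plus strand and with CpG dinucleotides in capitals.
IKZF1 first start: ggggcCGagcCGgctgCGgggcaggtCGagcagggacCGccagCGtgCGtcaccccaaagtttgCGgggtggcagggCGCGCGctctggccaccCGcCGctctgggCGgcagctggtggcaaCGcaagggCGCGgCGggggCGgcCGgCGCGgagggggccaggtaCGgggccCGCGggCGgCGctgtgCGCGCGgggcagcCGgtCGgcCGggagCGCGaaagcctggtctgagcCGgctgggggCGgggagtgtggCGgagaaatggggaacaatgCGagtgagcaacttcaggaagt
IKZF1 second start: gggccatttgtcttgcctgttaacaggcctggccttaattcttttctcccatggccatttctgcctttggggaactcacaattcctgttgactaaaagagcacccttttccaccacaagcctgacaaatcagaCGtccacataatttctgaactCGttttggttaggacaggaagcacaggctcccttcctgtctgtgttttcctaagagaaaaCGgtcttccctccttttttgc

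The first stretch held 39 CpG dinucleotides and the second 3. These counts are not on equal terms, because the lengths differ and the first stretch was selected for its composition. It was taken from the exon-free part of its region richest in G and C, and was 76% G and C. Over the whole regions, the first was 63.3% G and C with a CpG observed-to-expected ratio of 0.975, and the second 53.3% with a ratio of 0.257. The median of all 154985 regions was 46.9% and 0.223. The promoter regions of all 5 genes were rich in G and C, from 60.4% in IKZF3 to 65.4% in IKZF4, with CpG ratios from 0.641 to 1.07.

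Short motifs were searched on both strands. They were the core bound by Ikaros proteins (TGGGAA), an ETS and IRF composite (GGAANNGAAA), an interferon response element (GAAANNGAAA), AP-1 (TGANTCA) and the octamer (ATTTGCAT). The ETS and IRF composite and the interferon response element share the letters GAAA and can overlap. None of them was in the 2 stretches above. Over the whole regions, the first start region held 1 Ikaros core and the second 0. In windows of 235 bases centred on all regions, the Ikaros core was present in 16.8%. At 300 bases the shares were 21.3% for the Ikaros core, 5.11% for the ETS and IRF composite, 9.6% for the interferon response element, 15.2% for AP-1 and 3.72% for the octamer.

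The next 3 stretches come from regions away from the first starts whose level varied widely between lines, and motif matches are in capitals. The 2 IKZF1 regions were called in 5 and 3 lines and the IKZF2 region in 15. The first is chr7:50357052-50357351, in an intron 13.5 kb from the first IKZF1 start, on the plus strand. The second is chr7:50418299-50418598, in an intron 74.8 kb from it, on the plus strand. The third is chr2:213880491-213880790, on the minus strand, in a region 136.5 kb inside IKZF2 that the deposited annotation calls a promoter of IKZF2.
IKZF1 13.5 kb: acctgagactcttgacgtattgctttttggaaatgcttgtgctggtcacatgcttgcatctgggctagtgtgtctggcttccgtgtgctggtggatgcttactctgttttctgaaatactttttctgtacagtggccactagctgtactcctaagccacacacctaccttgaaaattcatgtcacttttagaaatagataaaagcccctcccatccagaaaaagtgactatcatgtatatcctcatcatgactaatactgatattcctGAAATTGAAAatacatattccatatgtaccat
IKZF1 74.8 kb: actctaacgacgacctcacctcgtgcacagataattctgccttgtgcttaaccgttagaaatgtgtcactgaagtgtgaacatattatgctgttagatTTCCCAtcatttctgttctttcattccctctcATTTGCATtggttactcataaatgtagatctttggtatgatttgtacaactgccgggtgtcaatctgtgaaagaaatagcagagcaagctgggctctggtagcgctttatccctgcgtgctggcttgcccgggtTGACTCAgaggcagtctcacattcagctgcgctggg
IKZF2 136.5 kb: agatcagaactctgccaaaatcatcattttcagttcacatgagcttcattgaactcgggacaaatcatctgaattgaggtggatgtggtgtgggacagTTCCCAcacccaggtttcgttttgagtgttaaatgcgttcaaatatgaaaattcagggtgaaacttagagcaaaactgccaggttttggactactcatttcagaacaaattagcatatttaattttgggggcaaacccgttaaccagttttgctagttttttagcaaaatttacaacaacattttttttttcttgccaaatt

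The 13.5 kb stretch held 1 interferon response element. The 74.8 kb stretch held 1 Ikaros core, here as TTCCCA on the printed strand, 1 octamer and 1 AP-1 match. The IKZF2 stretch held 1 Ikaros core, also as TTCCCA. A match is a run of letters and does not show that a factor binds there.

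Across the 22 untreated lines, the family's regions were called about as often as all regions. Of the 35 regions, 2 were accessible in all 22 lines, the promoter regions of IKZF2 and IKZF5, which was 5.71% against 3.98% of all regions. Another 15 were accessible in exactly 1 line, 42.9% against 37.1% of all regions, and the median was 2 lines in both sets. Both shares of the family were near those of all regions. Of the 10 regions annotated as promoters, 5 were accessible in at least 11 lines, against 39.5% of all promoter regions, and of the other 25 regions 1 was, against 8.67% of all others. Without PE1 the counts were again 2 in all lines (4.38% of all regions), 15 in 1 line (37.2%) and 6 in at least 11. The number of family regions called in a line ran from 4 in PE1 to 19 in H1112, the most deeply sequenced line (5564534 counts). The number and the total count had a Spearman rho of 0.775 across the 22 lines, or 0.74 without PE1. The part of depth in the calls was not tested. Lines did depart from this order, as PCM6 had 11 calls at 2150806 counts and XG-6 8 at 1602855, while Karpas620 had 5 at 2882585.

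**Figure D1:**
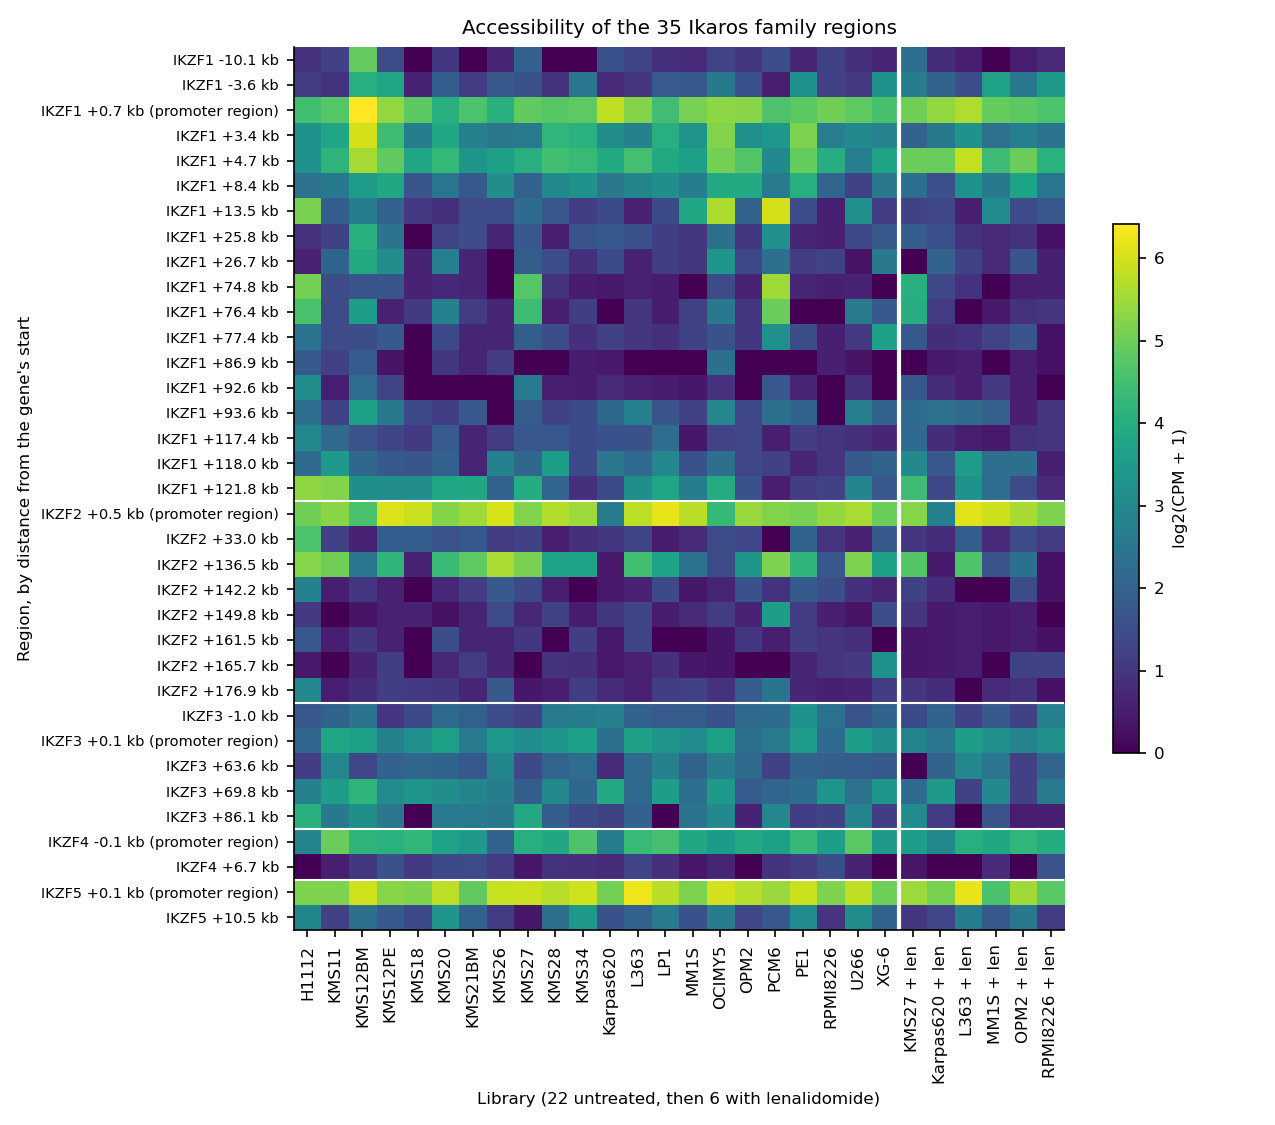
Heatmap of log2(CPM + 1) for the 35 Ikaros family regions (rows, by gene and distance from the gene's start in kb) in 22 untreated and 6 lenalidomide libraries (columns, divided by the white line). Rows for the promoter regions of IKZF1, IKZF2 and IKZF5 are bright in most columns, while rows such as IKZF1 +13.5 kb and +74.8 kb are bright in few, with maxima of 62.8 and 44.2 CPM in PCM6.

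The promoter regions differed in level between the genes. In CPM per kb of region, the means over 22 lines were 35.8 for IKZF2, 34.4 for IKZF5, 27.3 for IKZF1, 17.9 for IKZF3 and 15.2 for IKZF4. Of the 10 pairs of genes, 7 differed by a sign-flip permutation test over the 22 lines (two-sided, Benjamini-Hochberg adjusted over the 10 pairs). IKZF2 and IKZF5, the highest, did not differ beyond their spread, with a mean log2 difference of -0.03 (95% interval -0.38 to 0.32, adjusted p = 0.86). Neither did IKZF1 and IKZF2 (-0.34, -0.84 to 0.15, adjusted p = 0.18), although IKZF2 was higher in 19 of 22 lines and IKZF1 in 3. The SD of that difference was 1.11. Nor did IKZF3 and IKZF4 differ (0.27, -0.02 to 0.55, adjusted p = 0.066). This last result depended on the setting. IKZF3 was above IKZF4 by 0.296 without KMS12PE (adjusted p = 0.043) and by 0.324 with the lenalidomide libraries in place of the untreated ones of their lines (adjusted p = 0.014), but below it by 0.704 where values were not divided by width (adjusted p = 0.00024, all by the same permutation test), and 8 of 10 pairs passed in each. Without PE1, 7 of 10 passed and the IKZF3 and IKZF4 difference was 0.269 (adjusted p = 0.081, permutation test), and without PE1 and KMS12PE 7 passed and it was 0.299 (adjusted p = 0.054, permutation test).

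IKZF1 was below IKZF5 in 16 of 22 lines, by 0.38 on the log2 scale (adjusted p = 0.017). It was above IKZF3 in 17 lines by 0.58 (adjusted p = 0.0049) and above IKZF4 in 18 by 0.84 (adjusted p = 0.00012). The widest gap was between IKZF5 and IKZF4, at 1.22 with IKZF5 higher in 21 of 22 lines (adjusted p = 3.3e-05, its unadjusted p of 1e-05 being the smallest that 100000 flips can give). The promoter region of IKZF5 is shared with the start of ACADSB, an enzyme of fatty acid and branched-chain amino acid breakdown on the other strand, so its level cannot be credited to IKZF5 alone. The promoter region of IKZF2 is also annotated as the promoter of another gene, so its level cannot be credited to IKZF2 alone.

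**Figure D2:**
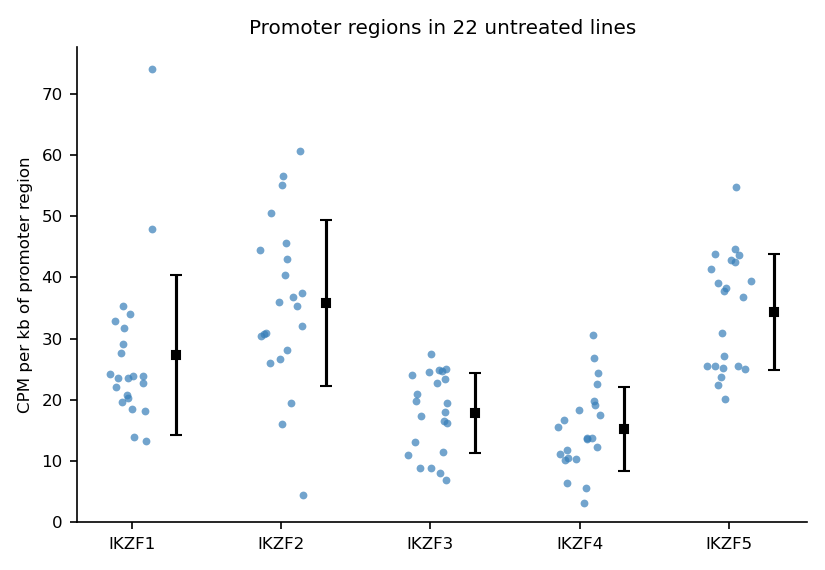
CPM per kb of the promoter region of each Ikaros family gene. Each point is 1 of 22 untreated lines, and the square with bars is the mean ± SD, with means of 27.3, 35.8, 17.9, 15.2 and 34.4 from IKZF1 to IKZF5. The 2 highest IKZF1 points are KMS12BM and Karpas620, and the lowest IKZF2 point is Karpas620.

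IKZF1, the founding member and a regulator of lymphoid development, had a promoter region at 31.3 CPM ± 14.9 (SD, n = 22 lines), accessible in 20 of 22. It ran from 15.3 CPM in KMS20 over a median of 27.1 to 84.7 in KMS12BM, with Karpas620 next at 54.8. The region at 3.4 kb (chr7:50346909-50347241) ran from 4.89 CPM in KMS26 over a median of 8.87 to 63.4 in KMS12BM, and only in KMS12BM was it called. OCIMY5 (36.0 CPM) and PE1 (34.4 CPM) were the next highest there.

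The second start region, at 4.7 kb, had 17.95 CPM ± 9.49 (SD, n = 22), from 5.74 in U266 over a median of 15.1 to 45.8 in KMS12BM. It was called in KMS20, KMS34 and LP1 (18.26, 19.04 and 13.9 CPM) but not in 7 lines with higher CPM than any of these, KMS12BM among them, so a call at this region does not rank lines by their level. The ratio of the second to the first region, in CPM not divided by width, had a median of 0.581. It ran from 0.21 in U266 to 1.2 in KMS20, with 2 of 22 lines above 1. The second region is 659 bases wide and the first 1143. Per kb, their means over the 22 lines were alike, at 27.2 and 27.3 CPM. Over the 22 lines the 2 regions had a Spearman rho of 0.516 (0.555 without PE1) and a Pearson r of 0.56 on log2(CPM + 1), or 0.467 without Karpas620 and KMS12BM, values that share library and depth. The region 8.4 kb downstream (chr7:50351984-50352179) had 6.97 CPM ± 4.18 (SD, n = 22).

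KMS12BM had the highest CPM of the 22 lines at 8 of the 18 IKZF1 regions and a summed IKZF1 value of 330.3 CPM against a median of 99.6. A region 10.1 kb upstream (chr7:50333358-50333814) was called in KMS12BM alone, with 28.4 CPM there and at most 3.04 in any other line. The other regions within 5 Mb of IKZF1 summed in KMS12BM to 1.42 times the mean of untreated lines, and their part in the IKZF1 values was not tested. KMS12PE, whose accessibility profile was the one nearest to that of KMS12BM, had 40.5 CPM at the promoter region and 27.99 at the second start.

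At some intronic regions of IKZF1, lines other than KMS12BM were the highest. KMS12BM itself was the highest line at 25.8 kb (15.8 CPM) and at 26.7 kb (13.9 CPM). The 13.5 kb region (chr7:50356789-50357616) had a median of 2.097 CPM but 62.8 in PCM6, 48.6 in OCIMY5, 33.4 in H1112, 13.1 in MM1S and 8.47 in U266, the 5 lines in which it was called. The 74.8 kb region (chr7:50418247-50418652), the IKZF1 region with the largest spread between lines, had 44.2 CPM in PCM6, 32.9 in H1112 and 25.6 in KMS27 and at most 2.29 in the other 19. PCM6 and H1112 were therefore high at both, while OCIMY5 was high at the first and KMS27 at the second.

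The 76.4 kb region (chr7:50419866-50420357) again had PCM6 (30.2), H1112 (22.8) and KMS27 (20.2) highest. At 121.8 kb (chr7:50464993-50465927) the high lines were H1112 (39.7 CPM) and KMS11 (36.3), against a median of 7.07 and a lowest value of 0.465 in PCM6. So PCM6, the highest line at 3 intronic regions, was the lowest at this one. In KMS27, the only line of these with both libraries, the 74.8 kb region had 25.6 CPM without and 15.7 with lenalidomide and remained the highest of the 6 lines.

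**Figure D3:**
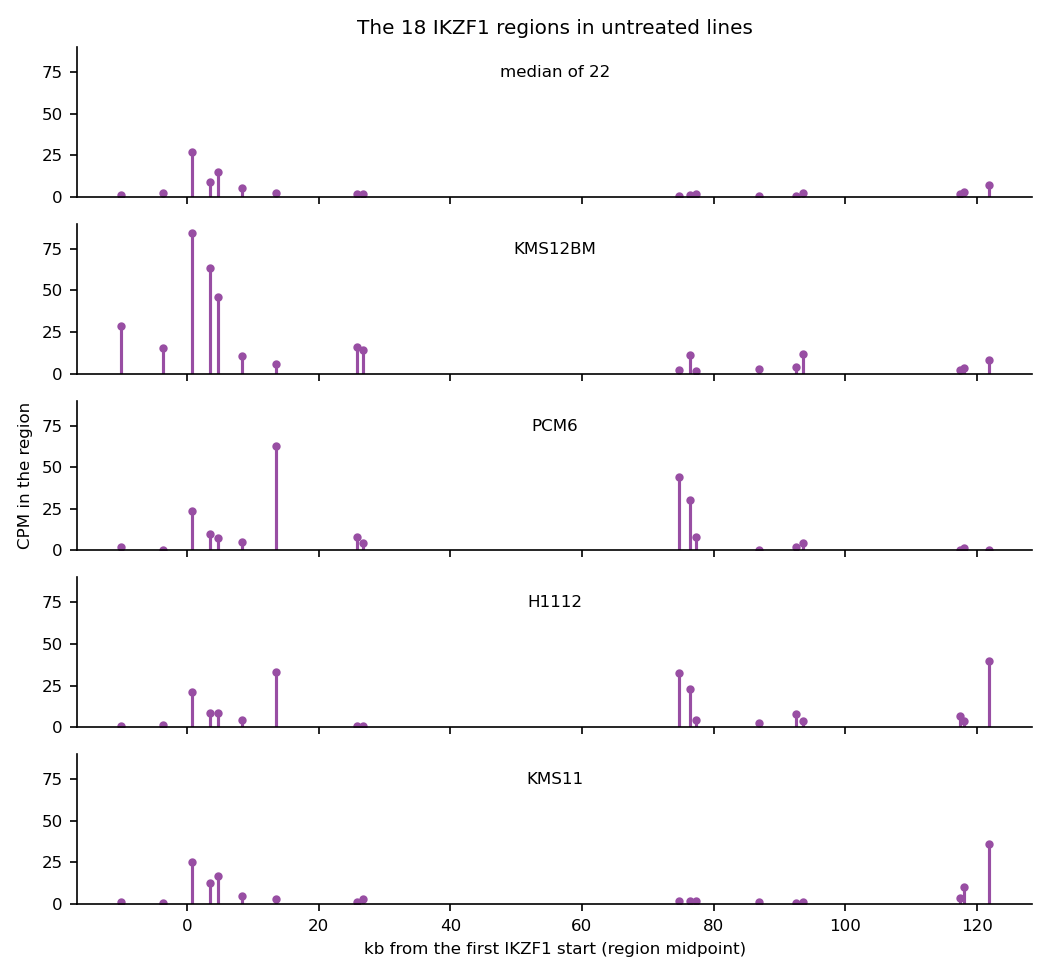
CPM in the 18 IKZF1 regions against distance from the first IKZF1 start in kb, as the median of 22 untreated lines and in 4 single lines. KMS12BM is high around the starts (84.7 CPM), PCM6 and H1112 at 13.5 and 74.8 kb, and H1112 and KMS11 at 121.8 kb.

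IKZF2 encodes Helios, known from regulatory T cells and stem cells. Its promoter region (chr2:214016101-214017275) was called in all 22 lines at 42.0 CPM ± 15.9 (SD). It ran from 5.20 CPM in Karpas620 over a median of 41.9 to 71.2 in LP1, with OCIMY5 (18.9) second lowest. The other regions within 5 Mb of IKZF2 in Karpas620 summed to 0.628 times the mean of untreated lines, the lowest of the 22, and their part in the low value was not tested. With lenalidomide Karpas620 again had the lowest value, 5.87 CPM.

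The internal IKZF2 start region at 136.5 kb (chr2:213880214-213881068) was the IKZF2 region that varied most. It ran from 0.347 CPM in Karpas620 and 0.561 in KMS18 over a median of 14.7 to 47.7 in KMS26, and was called in 15 lines. KMS18 was high at the promoter region (59.5 CPM) and near 0 here, so the 2 IKZF2 start regions did not rank these lines alike (Spearman rho 0.177 over 22 lines, 0.192 without PE1). The remaining 6 IKZF2 regions were each called in 1 line, 4 of them in H1112, 1 in PCM6 and 1 in XG-6. At 33.0 kb (chr2:213983771-213984484) H1112 had 23.2 CPM and no other line more than 3.13, and the region at 176.9 kb had 1.44 CPM ± 1.55 with 6.83 in H1112.

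IKZF3 encodes Aiolos, which acts in late B cell and plasma cell differentiation. Its promoter region (chr17:38020230-38020696) had 8.36 CPM ± 3.04 (SD, n = 22), from 3.24 in H1112 to 12.9 in KMS11, and was called in 6 lines. The region is 467 bases wide, against 978 to 1386 in the other 4 genes. More lines had a call at an intronic region 69.8 kb inside the gene (chr17:37950508-37951117), 15 of 22, at 7.22 CPM ± 3.86 (SD), with KMS12BM (17.1) and Karpas620 (14.2) highest.

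The IKZF3 region at 86.1 kb (chr17:37934132-37934789), at an internal start, varied most of the 5. It ran from 0 in KMS18 and LP1, where 0 counts allow up to 1.683 and 1.303 CPM, to 15.99 in H1112 and 13.8 in KMS27. The region 1.0 kb upstream of the first start had 3.42 CPM ± 1.77 and was called in Karpas620 alone, although PE1 had more (8.75 CPM).

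IKZF4 and IKZF5, the members least tied to the B lineage, had 2 regions each. The IKZF4 promoter region (chr12:56400846-56401823) had 14.9 CPM ± 6.71 (SD, n = 22), from 3.06 in KMS26 to 29.9 in KMS11, and was called in 19 lines. Regions within 5 Mb of IKZF4 summed to 0.564 and 1.85 times the untreated mean in those 2 lines, the lowest and the highest of the 22, and their part was not tested. The other IKZF4 region, at 6.7 kb, stayed between 0 and 2.04 CPM.

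The IKZF5 promoter region (chr10:124767512-124768897) was called in all 22 lines at 47.7 CPM ± 13.2 (SD), from 27.97 in KMS21BM to 76.0 in L363, the narrowest relative spread of the 5 promoter regions. The region at 10.5 kb had 3.90 CPM ± 2.81 and was called in H1112, KMS20 and U266.

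Across the 22 lines the promoter regions of IKZF3 and IKZF5 varied most alike of the 10 pairs, with a Spearman rho of 0.652 (0.632 without PE1) and a Pearson r of 0.599 (0.621 without XG-6 and KMS21BM), and IKZF3 and IKZF4 followed with 0.557. The other 8 pairs lay between -0.182 and 0.422. Among 41640 regions with a mean of at least 5 CPM, the region on another chromosome most like the IKZF1 promoter region was an intronic one nearest to the start of MBNL2 (rho 0.867), a splicing regulator, followed by the promoter regions of DCAF10 (0.814) and ZNF106 (0.778). For IKZF2 the most alike near a gene start was the promoter region of NMT2 (0.785), for IKZF3 an intronic region nearest to the start of RELB (0.793) and the promoter region of NME9 (0.788). For IKZF4 they were the promoter regions of NLK (0.854), PCIF1 (0.831) and PTPN1 (0.82), and for IKZF5 those of HIST1H3B (0.919) and DDX52 (0.834). These are the highest of many coefficients over 22 libraries and carry no test.

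With lenalidomide, 1 of the 11 family regions with enough counts to be tested changed, and it rose. Among all 37732 regions tested, 5.4% changed and 4.17% rose at an adjusted p below 0.05 (edgeR's quasi-likelihood test with the cell line as a block, Benjamini-Hochberg). The share of the family, 1 of 11, was therefore close to the background. The region was the second start of IKZF1, part of whose sequence is shown above.

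There CPM went from 14.2 to 29.3 in Karpas620, from 15.2 to 29.8 in KMS27 and from 21.9 to 55.8 in L363. It went from 11.3 to 19.96 in MM1S, from 24.5 to 30.7 in OPM2 and from 15.1 to 16.01 in RPMI8226. All 6 lines were higher with lenalidomide, RPMI8226 by a ratio of 1.06 only, and the 2 groups overlapped because the lines started from different levels. The fitted log2 change was 0.79 (SE 0.16, adjusted p = 0.0017, edgeR's quasi-likelihood test). Without the cell line as a block the log2 change was 0.82 with an adjusted p of 1.

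The peak was called in 0 of the 6 untreated libraries of these lines and in 6 of 6 lenalidomide libraries. In all, 9 regions had this pattern, 0.00581% of all regions. The median region was called in only 2 of 22 untreated lines, and this region had been picked for its rise. The share therefore does not gauge how unusual the pattern is. In RPMI8226 the call appeared at nearly equal CPM, with a total of 4248017 counts against 2117764. In counts, the 6 lenalidomide libraries had between 55 and 121 reads in the region.

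The first start region did not follow. Its CPM went from 54.8 to 40.7 in Karpas620, from 33.3 to 28.7 in MM1S, from 37.6 to 26.7 in OPM2 and from 31.6 to 23.3 in RPMI8226, and went from 27.7 to 31.5 in KMS27 and from 36.2 to 49.8 in L363. The log2 change was -0.15 (SE 0.13, adjusted p = 0.62, edgeR's quasi-likelihood test). The ratio of the second to the first region was higher with lenalidomide in 6 of 6 lines, with a mean log2 difference of 0.88 ± 0.31 (SD). An exact two-sided sign-flip test over the 6 lines gave p = 0.031, the smallest that 6 pairs allow. The second region had been picked for its rise in these same libraries, so this p adds no separate support for that rise. In single lines the ratio went from 0.273 to 0.728 in Karpas620, from 0.616 to 1.12 in L363 and from 0.494 to 0.7 in RPMI8226.

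Between the 2 starts, the 3.4 kb region had a mean of 7.07 CPM ± 1.52 without drug and 5.27 ± 1.94 with it (SD, n = 6), and was lower in 5 of 6 lines (log2 change -0.46, SE 0.25, adjusted p = 0.35, edgeR). Against it the second start was again higher in 6 of 6 lines (mean log2 difference of changes 1.13 ± 0.54 SD, exact sign-flip p = 0.031). These comparisons were made after the change at the second start had been seen, so their p-values add no separate support for it.

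**Figure D4:**
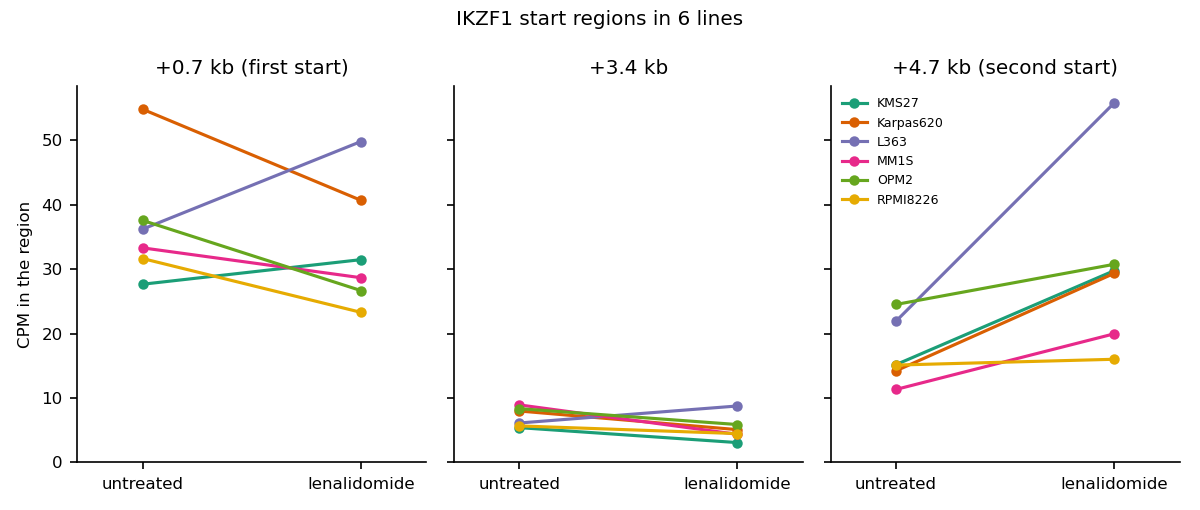
CPM in 3 IKZF1 regions without drug and with lenalidomide, with 1 line of points per cell line (6 lines). At +4.7 kb all 6 lines go up, L363 from 21.9 to 55.8, whereas at +0.7 and +3.4 kb the lines go both ways.

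A region 3.6 kb upstream of the first IKZF1 start (chr7:50339915-50340205) had too few counts for the filter. It had 0.694, 2.02, 1.02, 2.40, 2.09 and 1.42 CPM without drug in Karpas620, KMS27, L363, MM1S, OPM2 and RPMI8226, and 3.13, 5.47, 1.84, 12.0, 4.97 and 10.1 with lenalidomide. It was thus higher in 6 of 6 lines and called in 2 lenalidomide libraries, MM1S and RPMI8226. With no filter on low counts its log2 change was 1.98 (SE 0.36, adjusted p = 1.6e-05, edgeR), and it and the second start were then the 2 changed regions among all 35, against 2.64% of all regions in that fit. The untreated libraries had 2 to 7 reads in it, so the size of the change is poorly set. The IKZF3 region at 86.1 kb, which also had too few counts for the filter, was lower in 6 of 6 lines. With no filter its log2 change was -1.05 (SE 0.41, unadjusted p = 0.0097, adjusted p = 0.19, edgeR), which did not pass.

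The other tested regions did not pass. The IKZF5 promoter region was lower in 5 of 6 lines, from 48.2 CPM ± 17.2 to 40.8 ± 18.04 (SD), with a log2 change of -0.27 (SE 0.11, unadjusted p = 0.021, adjusted p = 0.18, edgeR). The internal IKZF2 start had 2.36 and 0.235 CPM in RPMI8226, 9.39 and 4.07 in OPM2 and 4.46 and 2.18 in MM1S without and with the drug, 33.4 and 25.0 in KMS27, and near-equal values in L363 and Karpas620 (log2 change -0.51, SE 0.26, adjusted p = 0.31, edgeR). The IKZF2 promoter region had a log2 change of 0.12 (SE 0.12), that of IKZF3 0.24 (SE 0.24) and that of IKZF4 0.05 (SE 0.19), with adjusted p from 0.69 to 0.95. The IKZF3 region at 69.8 kb had -0.28 (SE 0.28), and the IKZF1 regions at 8.4 and 121.8 kb had -0.01 (SE 0.26) and 0.04 (SE 0.27). The median over the 11 tested regions was -0.01 and that over all 37732 was -0.01. By an unadjusted p under 0.05, 2 of the 11 passed, against 17.3% of all regions tested, and by DESeq2 1 changed, against 2.22%. Single lines moved several of these values by over 1.5 times. The IKZF3 promoter region had 0.07 without RPMI8226, the IKZF2 promoter region 0.06 without L363 and 0.20 without RPMI8226, and the internal IKZF2 start -0.82 without L363. The IKZF1 first start had -0.09 without Karpas620, OPM2 or RPMI8226 and -0.23 and -0.27 without KMS27 and L363. Leaving out single lines took the IKZF4 promoter region from -0.04 to 0.15, the IKZF1 region at 8.4 kb from -0.10 to 0.15 and that at 121.8 kb from 0.04 to 0.10. None of these values passed.

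**Figure D5:**
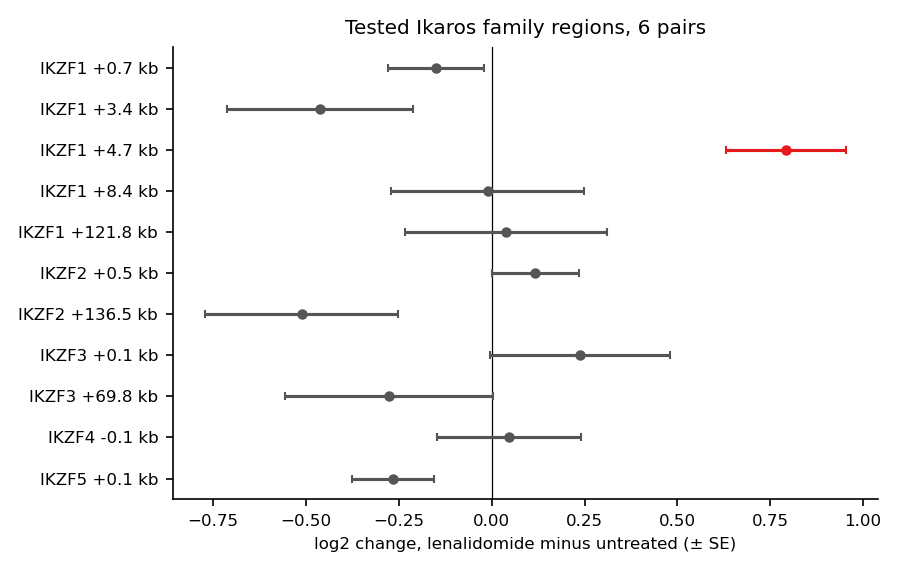
Log2 change with lenalidomide ± SE (edgeR, 6 pairs) for the 11 tested Ikaros family regions, in red where the adjusted p is below 0.05. The only red point is the IKZF1 second start at 0.79, and the other 10 lie between -0.51 and 0.24.

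Summed over all regions of a gene, no change passed. The mean log2 change was 0.12 ± 0.26 (SD, n = 6) for IKZF1, higher in 4 of 6 lines, from 100.9 CPM to 111.1 on average. It was -0.02 ± 0.21 for IKZF2, -0.18 ± 0.26 for IKZF3, 0.02 ± 0.36 for IKZF4 and -0.23 ± 0.23 for IKZF5. The exact sign-flip p-values ran from 0.094 to 0.91 and the adjusted ones from 0.47 to 0.91. Without L363 the change of IKZF1 was 0.01. Over regions other than the promoter region the changes were 0.29 for IKZF1 (exact sign-flip p = 0.031, unadjusted), -0.455 for IKZF2 and -0.399 for IKZF3 (exact p = 0.062 for both, unadjusted), and 0 of the 5 genes passed after adjustment. Over all regions an unadjusted p under 0.05 was found for 0 of the 5 genes, and 6 pairs allow none below 0.031.

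Genes tied to the family by function were read at their promoter regions, from lists of the drug's ligase, of Ikaros partners and of Ikaros-dependent genes. Of the 7 genes of the ligase and of its other substrates, 6 had a tested region and 1 changed, against 5.4% of all regions tested. The changed one was ZNF692, a zinc finger substrate of the drug-bound ligase, which fell from 158.7 to 122.4 CPM on average (log2 change -0.37, SE 0.07, adjusted p = 0.0014, edgeR). CRBN, which encodes cereblon itself, had 47.6 and 41.2 CPM (log2 change -0.21, SE 0.12, adjusted p = 0.35, edgeR), and its promoter region was called in all 22 lines.

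Of 10 partners in chromatin complexes, 9 had a tested region and 0 passed (edgeR's adjusted p below 0.05), and DESeq2 called 0. An unadjusted p under 0.05 in edgeR was found for 2 of the 9, against 17.3% of all regions tested. CHD4, the remodelling ATPase of the NuRD complex, had 20.6 CPM without and 30.2 with lenalidomide (log2 change 0.51, SE 0.18, adjusted p = 0.091, edgeR). Of 10 genes known to depend on Ikaros proteins, 6 were tested and 0 passed in edgeR, 0 also at an unadjusted p under 0.05 and in DESeq2. Among them IRF4, a survival factor of myeloma cells, had a log2 change of 0.19 (SE 0.13) and MYC -0.07 (SE 0.10). Of the 6 plasma cell markers, 6 were tested and 1 changed in edgeR, against 5.4% of all regions tested. The changed one, MZB1, a chaperone of antibody secretion, had a log2 change of -0.49 (SE 0.14, adjusted p = 0.031), which DESeq2 did not call (adjusted p = 0.13). Of the 3 B cell markers 2 were tested and 0 passed in edgeR, at an unadjusted p under 0.05 or in DESeq2.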

How the data were processed

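Chromatin accessibility had been assayed by ATAC-seq in 22 myeloma cell lines without drug, 1 library each, and in 6 of them with lenalidomide. The authors aligned reads to GRCh37 with Bowtie2 2.2.6 and called peaks per library with MACS2 2.1.0.20151222 at a q of 0.01, per the labels and methods, and merged them into 154985 autosomal regions. Methods that also cover the ChIP-seq libraries say that likely PCR duplicates were flagged with SAMtools 1.7. Whether they were removed before counting, a shift of read ends for the enzyme and the counting of reads or of fragments are not given in the sources used here, and each could change low counts. The deposited values used were the authors' raw counts per region and a second deposited table of whole numbers (counts from 0 to 4), taken here to count peaks of that library within the region, which the file does not define. Groups came from the titles and labels of the samples. One planned marker and 1 stretch of sequence are not reported here. The members, gene lists and tests were chosen with earlier results of these data known.

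CPM were the counts divided by the library's total over regions. The lenalidomide comparison used edgeR 4.0.16 (TMM, filterByExpr, quasi-likelihood test) over all regions with the cell line as a block, with Benjamini-Hochberg adjustment and a threshold of 0.05, in R 4.3.3, and was tested on simulated data. Each pair came from the same cell line, and 6 of 6 lenalidomide libraries were nearest to their own line. Sums per gene (pseudocount 1) were compared by an exact sign-flip test over 6 pairs, and promoter regions per kb by 100000 random sign flips over 22 lines. The SE was the log2 change over the square root of F. Limits from 0 counts (3 counts of the total) cover counting error only. The intervals of the differences between promoter regions come from the spread of those differences over the 22 lines. With the block or the pairs, p-values weigh the change within lines against how much that change varied from line to line. Differences in level between lines are then left out, and in edgeR counting error also enters. Without the block, differences in level between lines are part of the spread. For promoter regions, p-values weigh the difference between genes within a line against its spread over the 22 lines.

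Regions were named by a rule: for each gene the promoter region, the 3 others with the highest mean CPM, the other with the largest SD of log2(CPM + 1) and each changed region. Others that are named were chosen after their values were seen. The alternatives were DESeq2 1.42.0, its size factors, no TMM, other filters, no block, local scaling within 5 Mb, a pseudocount of 0.1, other sets of regions, thresholds of 2 and 5 CPM in place of a call, and each line left out. The comparisons of the IKZF1 second start with its neighbours, their alternatives, and those without PE1 were added after the data were seen.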

Additional observations from a re-analysis of the deposited data

Results flagged for a closer look

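For the named regions and the summed genes, 44 sets of 6 values were examined. Each set held CPM in the 6 lenalidomide libraries or changes of the 6 lines. In 7 sets, 1 value lay far from the other 5. A rate of 1 in 20 would give 2.2. The sets overlap and some regions were named for their large spread between lines, so 7 cannot be set against that number. At the IKZF1 second start, L363 with lenalidomide had 55.8 CPM, and the next value was 30.7. L363 also had the highest change of summed IKZF1 accessibility, 0.63 on the log2 scale against 0.10 in the next line. At the IKZF1 74.8 kb region, KMS27 with lenalidomide had 15.7 CPM against at most 1.57 in the others, and its untreated library was high there too. At the IKZF3 86.1 kb region, KMS27 with lenalidomide had 7.53 CPM against at most 2.18. L363 had the lowest log2 change there, -2.02, with 6 counts untreated and 0 counts with the drug. OPM2 with lenalidomide had the lowest summed IKZF3 value, 10.9 CPM, where the next was 19.5. At the IKZF4 6.7 kb region, RPMI8226 with lenalidomide had 2.12 CPM against at most 0.726, a few reads in each library.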

How the results depend on the processing

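Over all regions, DESeq2 called 839 changed, all regions without a filter 4092, a minimum of 10 counts per library 587, and no replicate block 0 (440 at an unadjusted p under 0.05), against 2036. Leaving out 1 line gave 1067 (without MM1S; 1310 without KMS27) to 2503. In the family, no filter gave 2 changed regions and no replicate block 0, against 1. Each line left out in turn gave 1. The IKZF1 second start had a log2 change of 0.82 without the block and 0.67 to 0.92 without 1 line, with adjusted p between 0.00016 and 0.029 in edgeR. Its change relative to the promoter region was 0.776, 0.909, 0.887, 0.864, 0.9 and 0.958 without Karpas620, KMS27, L363, MM1S, OPM2 and RPMI8226, where 5 pairs allow no exact p below 0.062. The block changed no other call of the family.

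For promoter regions, 4 of 10 pairs of genes passed over all regions of a gene per kb, against 7, and 8 passed without KMS12PE, with lenalidomide libraries in place and without division by width (IKZF3 minus IKZF4 0.296, 0.324 and -0.704). Without PE1, 7 passed. IKZF3 minus IKZF4 was -0.10 over all regions. IKZF2 minus IKZF5 was 0.0702 with lenalidomide libraries in place of the untreated ones. At least 11 lines were reached by 19 of 35 regions at 2 CPM and by 11 at 5 CPM, against 6 by called peaks.

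Summed changes of opposite sign were 0.0192 (IKZF2, local scaling), -0.15 (IKZF1), 0.11 (IKZF2) and 0.24 (IKZF3) at the promoter region alone, and -0.27 (IKZF4) and 0.44 (IKZF5) over the other regions. Without 1 line, IKZF2 ran from -0.0805 to 0.0421 (0.00023 without KMS27, 0.0421 without RPMI8226) and IKZF4 from -0.0546 to 0.108 (-0.00785, -0.0488 and -0.0546 without Karpas620, OPM2 and RPMI8226). Among single regions, IKZF1 at 8.4 kb had 0.0477 with no filter and -0.0954 to 0.153 without 1 line (0.153 and 0.0494 without Karpas620 and OPM2), IKZF1 at 121.8 kb -0.0646 in DESeq2, and the IKZF4 promoter region -0.0372 to 0.145 without 1 line (-0.0202 and -0.0372 without OPM2 and RPMI8226). None of these values passed its test in either setting, apart from IKZF3 minus IKZF4 without division by width (adjusted p = 0.00024, sign-flip permutation test). In all, 297 of the 360 recomputed values kept direction and side of the threshold or, for counts, stayed within 1.5 times, while 29 moved further, 20 changed sign, 11 no longer passed and 3 newly passed. The cause of these differences was not tested. Regions under about 1 CPM rest on a few counts, which limits any statement on them.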
